A study of Danio rerio with 6 samples.

Results

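Sarcomere assembly and excitation-contraction coupling genes of the zebrafish trunk were described across sorted cell populations. The set was a list of 44 gene names covering giant proteins, Z-disc and M-band proteins, thin filament regulators, chaperones and calcium handling, with myosin, troponin and actin genes left out. Each name matched 1 row of the count table, so the set held 44 of 32520 genes. RNA was sequenced in bulk from cells sorted out of hand-dissected trunks of wild-type embryos at 24 hours post fertilization. All embryos carried both a sox10:mRFP transgene, whose sox10 promoter marks neural crest, and a prdm1a:eGFP transgene, whose prdm1a sequences mark slow-twitch muscle and muscle pioneer cells. The 6 libraries formed 3 groups of 2. They were untreated slow muscle (replicates 1 and 2), neural crest of embryos that were exposed to cyclopamine at 100 µM, beginning at 50% epiboly (replicates 3 and 4), and untreated neural crest (replicates 1 and 2). Cyclopamine blocks Smoothened, the membrane protein that passes Hedgehog signals into the cell. The labels name no vehicle for the untreated embryos. How many embryos made a library, and whether replicates were separate pools, is not said. The p-values therefore reflect the scatter among these libraries alone, and that scatter may be technical.

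A sarcomere is the repeating contractile unit of striated muscle. Actin filaments are anchored in Z-discs by alpha-actinin, myosin filaments are joined at the M-band, titin spans from the Z-disc to the M-band and nebulin runs along the thin filament. Myosin folds with the help of the chaperones Unc45b, Hsp90 and the methyltransferase-like protein Smyd1, and Kelch-like proteins control the turnover of thin filament proteins. In excitation-contraction coupling, a voltage-sensing calcium channel in the surface membrane opens the ryanodine receptor of the sarcoplasmic reticulum, calsequestrin buffers calcium inside that store and the pump Atp2a1 (SERCA1) refills it. In zebrafish, slow fibres form from adaxial cells under Hedgehog signals and are lost when that pathway is blocked.

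The libraries held 15355583 to 26441238 counts, and 3 counts, the most that a count of 0 allows by counting error, corresponded to 0.127 to 0.177 CPM (counts per 1000000 counts of the TMM-normalised library size). Genes at low counts piled up at 34 to 44 counts in 5 libraries and at 102 counts in cyclopamine replicate 4, which also had the fewest genes with counts, 13249 against 15281 to 17275. Levels of a few CPM lie near that step, and all intervals here cover counting error only. The labels of the sorted cells were checked with marker lists. Slow muscle markers summed to 54138 and 25886 CPM in slow muscle, 111 and 212 CPM in cyclopamine neural crest and 198 and 206 CPM in untreated neural crest. In slow muscle most of that sum was smyhc1 (45363 and 21652 CPM), and the listed markers tnni1b (4.01 and 0 CPM) and tnnt1 (6.065 and 0.253 CPM) were low. Most of the neural crest sums was prdm1a, at 103 and 203 CPM in cyclopamine and 145 and 132 CPM in untreated neural crest. The slow myosin gene smyhc1 stood at 0.951 and 0 CPM in cyclopamine and 47.1 and 59.0 CPM in untreated neural crest. Neural crest markers summed to 225 and 217 CPM in slow muscle, 5629 and 6879 CPM in cyclopamine neural crest and 5589 and 5489 CPM in untreated neural crest. In slow muscle most of that sum was snai1b, at 189 and 156 CPM. Of 6 heart muscle markers in the table, all 6 were at 0 in both slow muscle libraries. The slow muscle libraries also held epidermal markers, at 7889 and 10854 CPM against 812 and 553 CPM in untreated neural crest. Fast muscle markers stood at 4395 and 2213 CPM against 90.4 and 109 CPM, and endothelial markers at 1911 and 2112 CPM against 266 and 293 CPM. In bulk samples fewer cells of a type and less RNA per cell cannot be told apart.

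The 44 genes together took 5.38% and 2.97% of all counts in slow muscle replicates 1 and 2. They took 0.244% and 0.0761% in cyclopamine replicates 3 and 4, and 0.0692% and 0.0792% in untreated neural crest replicates 1 and 2. Slow muscle thus stood far above every neural crest library, and cyclopamine replicate 3 stood above the other 3 neural crest libraries, while cyclopamine replicate 4 lay between the untreated ones. All 44 genes had counts in both slow muscle libraries. In cyclopamine replicates 3 and 4, 9 and 22 of them were at 0, and 13 were at 0 in each untreated library.

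**Figure D1:**
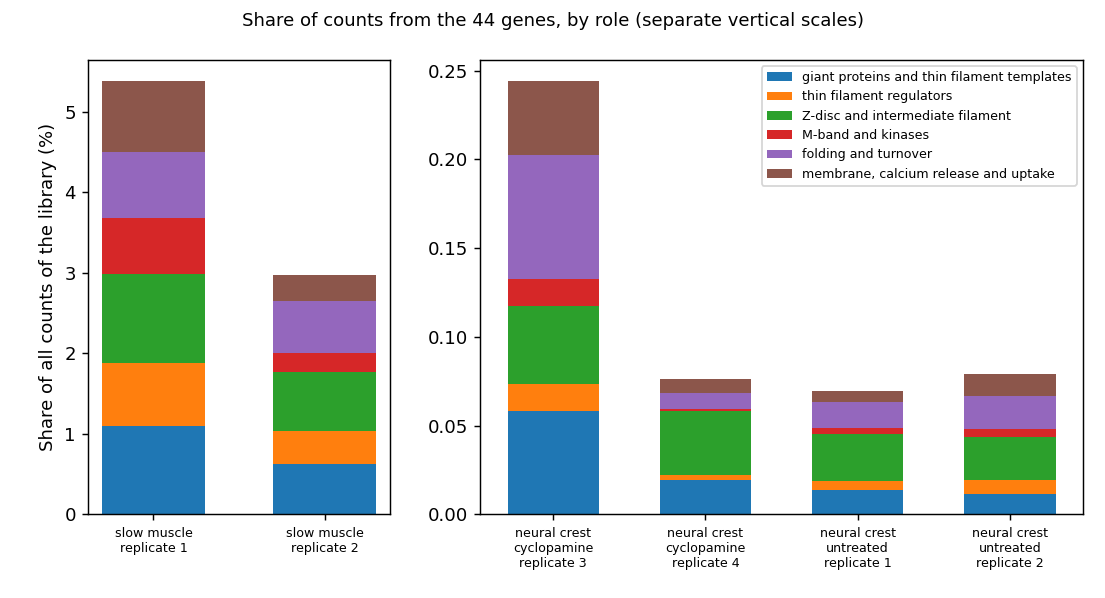
Share of all counts of each library (%) that fell on the 44 genes, stacked by the genes' roles; the slow muscle panel and the neural crest panel have separate vertical scales. Slow muscle lies at 5.38% and 2.97%, cyclopamine replicate 3 at 0.244% and the other 3 neural crest libraries between 0.0692% and 0.0792%.

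The slow muscle libraries differed from each other in one direction over the whole set. CPM in replicate 1 was higher than in replicate 2 for 44 of 44 genes, with a median ratio of 2.04 and a range of 1.097 to 6.71. Over 9887 genes at 10 CPM or more in slow muscle the median ratio was 1.001, and 50.1% of them were higher in replicate 1. The gap was smallest for flncb (1.097-fold), a filamin of the Z-disc and of other cells, for unc45b (1.22-fold) and for cacnb1 (1.25-fold). It was widest for myoz1b (6.71-fold, on 172 and 32 counts), actn2b (4.56-fold), myoz2b (3.98-fold) and atp2a1 (3.76-fold). The sum of slow muscle markers moved with it, mostly through smyhc1 (45363 and 21652 CPM), while prdm1a was level (1054 and 1062 CPM). Summed fast muscle markers moved with it too (4395 and 2213 CPM), although tnnt3b (10.2 and 20.4 CPM) and myhz1.2 were lower in replicate 1. Most of these sums was tnni2b.1, a fast troponin I gene, at 3471 and 1788 CPM. Summed epidermal and endothelial markers lay lower in replicate 1, although krt5, krt91, tie1 and lmo2 were higher there. Their part in the difference was not tested.

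**Figure D2:**
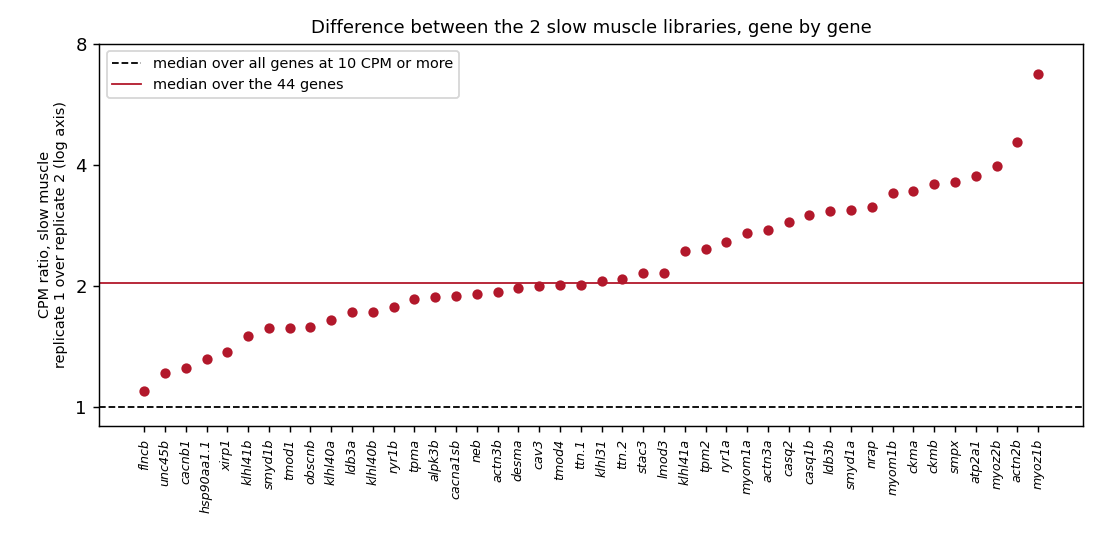
Ratio of CPM in slow muscle replicate 1 over replicate 2 for each of the 44 genes, sorted, on a log axis; the dashed line is the median over all genes at 10 CPM or more and the solid line the median over the 44 genes. Every point lies above 1, from 1.097 for flncb to 6.71 for myoz1b.

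Slow muscle was set against untreated neural crest to show which parts of the contractile apparatus were more abundant as transcripts in the sorted muscle cells at 24 hours. Both slow muscle libraries exceeded both untreated neural crest libraries for 44 of 44 genes, where 33.6% of the 17701 genes tested did so. In edgeR's quasi-likelihood test with Benjamini-Hochberg adjustment over all genes tested, 19 of the 44 genes passed 0.05 and were higher, where 1.67% of all genes were, and none was lower (0.876% of all genes were). At an unadjusted p under 0.05, 41 of the 44 were higher and none lower, where 11.5% and 7.67% of all genes were, and DESeq2 called none lower. For none of them did both slow muscle libraries lie below both untreated libraries, where 27.3% of all genes did so. The median log2 fold change over the 44 genes was 7.19, against 0.08 over all genes tested, and 6.91 with the 9 genes that had no count in untreated neural crest set at the bound that 3 counts per library give. All 44 passed the filter on low counts, some through the slow muscle libraries alone, so these counts and medians describe the set and are no test of it.

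Of the 25 genes that missed the threshold, 24 stood above 10 CPM in both slow muscle libraries, and 22 had an unadjusted p under 0.05 in the same direction. DESeq2 called 37 of the 44 genes higher, where it called 2756 of the 17701 genes in either direction. edgeR's newer quasi-likelihood method, added after the data were seen, called 43 higher, where it called 1818 of the 17701 genes in either direction. The median log2 fold change over the 44 genes was 7.06 without untreated replicate 1 and 7.78 without untreated replicate 2. In each case the larger part of the 19 calls was lost. The cyclopamine libraries enter the shared estimate of the spread. With 1 of them left out at a time, the median was 7.18 without replicate 3 and 7.19 without replicate 4. A median fold change says little about that spread, on which the calls depend. With only the slow muscle and untreated libraries fitted, edgeR called 39 of the 44 genes higher. It called 2368 of the 16682 genes tested in that fit in either direction, against 451 in the main fit. Of the 19 called genes, 6 (neb, xirp1, actn3b, alpk3b, klhl41a and cav3) passed under each of the 14 alternatives.

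**Figure D3:**
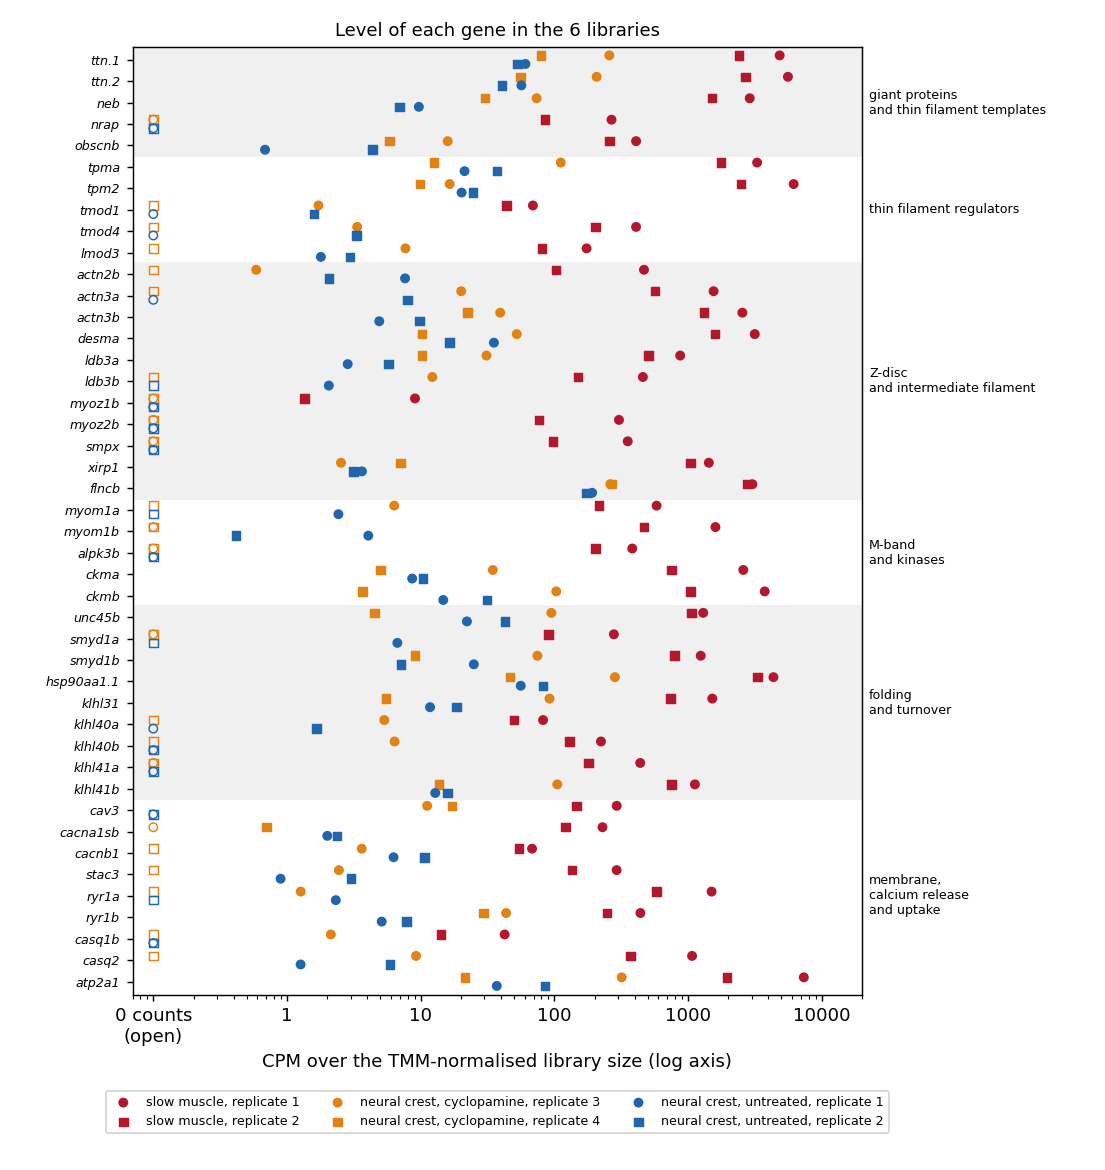
CPM of each of the 44 genes (rows, grouped by role) in the 6 libraries on a log axis; circles and squares are the first and second library of a group, and open symbols at the left edge are libraries with 0 counts. The red slow muscle symbols lie to the right of every neural crest symbol in each row.

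In the main edgeR test the giant proteins and thin filament templates were the most uniformly called role, with 5 of 5 higher in slow muscle. Over all genes tested that share was 1.67%. The gap between roles was smaller with other methods. DESeq2 also called the thin filament regulators tpma, tmod1 and lmod3, and the newer quasi-likelihood method called every gene of the set but myoz1b. The lowest log2 fold change was 5.995 among the giant proteins and 5.745 among the thin filament regulators. ttn.1 (ENSDARG00000000563), 1 of the titin genes, stood at 4852 and 2404 CPM in slow muscle, 258 and 79.7 CPM in cyclopamine neural crest and 60.8 and 52.9 CPM in untreated neural crest. The other titin gene, ttn.2 (ENSDARG00000028213), was measured at 5594 and 2684 CPM in slow muscle, 207 and 55.7 CPM in cyclopamine neural crest and 56.7 and 40.7 CPM in untreated neural crest. Both were higher in slow muscle than in untreated neural crest, by a log2 fold change of 5.995 ± 0.79 (± SE) for ttn.1, with an adjusted p of 0.028 in edgeR, and 6.41 ± 0.88 for ttn.2, with an adjusted p of 0.0309. How reads that map to several places were counted is not stated, so counts of close paralogues such as these may have been shared out between them. neb (ENSDARG00000032630) encodes nebulin, which runs along the thin filament, and stood at 2896 and 1516 CPM in slow muscle, 73.7 and 30.2 CPM in cyclopamine neural crest and 9.70 and 6.92 CPM in untreated neural crest. Its slow muscle values lay above all others, and its cyclopamine values above the untreated ones (slow muscle over untreated, log2 fold change 8.05 ± 0.75, edgeR adjusted p = 0.0136). nrap (ENSDARG00000009341), the nebulin-related anchoring gene of growing myofibrils, stood at 268 and 85.1 CPM in slow muscle and had 0 counts in all 4 neural crest libraries, at least 1052-fold higher against the limit of 3 counts per untreated library (edgeR adjusted p = 0.0336). Such limits cover the counting of reads alone. With the counts at which low genes piled up in the untreated libraries, 34 and 37, in place of 3, the fold for nrap and every further fold of this kind would be smaller. obscnb encodes obscurin, which links the M-band to the sarcoplasmic reticulum. It stood at 409 and 258 CPM in slow muscle, 15.9 and 5.87 CPM in cyclopamine neural crest and 0.685 and 4.38 CPM in untreated neural crest, and was higher in slow muscle than in untreated cells by 7.05 ± 1.12 on the log2 scale (edgeR adjusted p = 0.0401).

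Among the 5 thin filament regulators 1 was called higher, the tropomyosin gene tpm2 (ENSDARG00000104682), whose protein lies along actin and gates myosin binding. It stood at 6172 and 2497 CPM in slow muscle, 16.5 and 9.86 CPM in cyclopamine neural crest and 20.2 and 24.5 CPM in untreated neural crest. Here the cyclopamine libraries lay below the untreated ones, and the difference between slow muscle and untreated cells was 7.60 ± 0.71 on the log2 scale (edgeR adjusted p = 0.0136). The other tropomyosin gene of the set, tpma, stood at 3289 and 1769 CPM in slow muscle, 112 and 12.6 CPM in cyclopamine neural crest and 21.3 and 37.2 CPM in untreated neural crest, and missed the threshold (edgeR adjusted p = 0.0563). The tropomodulin genes tmod1 and tmod4 encode caps of the thin filament's pointed end. tmod1 stood at 69.1 and 43.9 CPM in slow muscle, 1.72 and 0 CPM in cyclopamine neural crest and 0 and 1.60 CPM in untreated neural crest. The values of tmod4 were 409 and 203 CPM in slow muscle, 3.35 and 0 CPM in cyclopamine neural crest and 0 and 3.31 CPM in untreated neural crest. Each was thus at or near 0 in single neural crest libraries. lmod3, whose protein starts actin filaments at the pointed end, stood at 174 and 80.9 CPM in slow muscle, 7.70 and 0 CPM in cyclopamine neural crest and 1.79 and 2.96 CPM in untreated neural crest. None of these 3 passed (edgeR adjusted p between 0.183 and 0.252), although both slow muscle libraries lay above both untreated libraries for each.

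Of the 11 genes of the Z-disc and of intermediate filaments 7 were called higher. flncb (ENSDARG00000018820), which encodes filamin C, an actin crosslinker, had the smallest difference of the called genes and the closest slow muscle replicates. It stood at 3032 and 2764 CPM in slow muscle, 262 and 271 CPM in cyclopamine neural crest and 192 and 174 CPM in untreated neural crest, with 3.99 ± 0.33 as the log2 fold change (slow muscle over untreated, edgeR adjusted p = 0.0132). xirp1 (ENSDARG00000030722) encodes Xin, an actin-binding repeat protein of muscle attachment sites, and stood at 1432 and 1046 CPM in slow muscle, 2.54 and 7.05 CPM in cyclopamine neural crest and 3.64 and 3.14 CPM in untreated neural crest. Its neural crest libraries overlapped between treatments, and all lay below 8 CPM (slow muscle over untreated, log2 fold change 8.51 ± 0.71, edgeR adjusted p = 0.0132). Among the alpha-actinin genes, whose proteins anchor thin filaments in the Z-disc, actn3b (ENSDARG00000001431) was called. It stood at 2552 and 1315 CPM in slow muscle, 39.4 and 22.5 CPM in cyclopamine neural crest and 4.90 and 9.82 CPM in untreated neural crest (slow muscle over untreated, log2 fold change 8.04 ± 0.73, edgeR adjusted p = 0.0136). actn3a, at 1554 and 565 CPM in slow muscle, 20.1 and 0 CPM in cyclopamine neural crest and 0 and 7.99 CPM in untreated neural crest, missed the threshold (edgeR adjusted p = 0.235). The same held for actn2b, at 469 and 102.8 CPM in slow muscle, 0.589 and 0 CPM in cyclopamine neural crest and 7.64 and 2.07 CPM in untreated neural crest (edgeR adjusted p = 0.109).

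desma (ENSDARG00000058656) encodes desmin, the intermediate filament that ties Z-discs together. It stood at 3158 and 1599 CPM in slow muscle, 52.4 and 10.2 CPM in cyclopamine neural crest and 35.3 and 16.4 CPM in untreated neural crest, with the neural crest groups overlapping (slow muscle over untreated, log2 fold change 6.52 ± 1.05, edgeR adjusted p = 0.0401). Of the LIM domain binding genes, whose proteins (ZASP or Cypher in mammals) bind alpha-actinin, ldb3a stood at 875 and 508 CPM in slow muscle, 31.1 and 10.2 CPM in cyclopamine neural crest and 2.85 and 5.74 CPM in untreated neural crest. ldb3a was called higher than in untreated cells by 7.33 ± 0.84 on the log2 scale (edgeR adjusted p = 0.0196), while ldb3b, at 459.9 and 150 CPM in slow muscle, 12.2 and 0 CPM in cyclopamine neural crest and 2.06 and 0 CPM in untreated neural crest, was not (edgeR adjusted p = 0.195). 3 of the Z-disc genes had no count in any neural crest library. The calcineurin-binding calsarcin gene myoz2b (ENSDARG00000037266) stood at 305 and 76.5 CPM in slow muscle, at least 1136-fold higher than the limit in untreated cells (edgeR adjusted p = 0.0401). smpx (ENSDARG00000045302), which encodes a small stretch-responsive muscle protein, stood at 354 and 97.6 CPM, at least 1346-fold higher (edgeR adjusted p = 0.0366). myoz1b, the relative that mammals use in fast fibres, stood at 9.07 and 1.35 CPM in slow muscle and did not pass (edgeR adjusted p = 0.269).

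At the M-band and among the kinases, 2 of 5 genes were called higher. alpk3b (ENSDARG00000105630), which encodes an alpha-kinase family protein needed for sarcomere order in mammalian heart, stood at 383 and 203 CPM in slow muscle and had 0 counts in all 4 neural crest libraries, at least 1747-fold higher than the untreated limit (edgeR adjusted p = 0.0178). The muscle creatine kinase gene ckma (ENSDARG00000035327), whose enzyme regenerates ATP at the M-band, stood at 2593 and 754 CPM in slow muscle, 34.7 and 5.03 CPM in cyclopamine neural crest and 8.64 and 10.4 CPM in untreated neural crest (slow muscle over untreated, log2 fold change 7.46 ± 1.25, edgeR adjusted p = 0.0455). Its partner gene ckmb stood at 3749 and 1042 CPM in slow muscle, 103.4 and 3.66 CPM in cyclopamine neural crest and 14.8 and 31.3 CPM in untreated neural crest and missed the threshold (edgeR adjusted p = 0.116). In both kinase genes slow muscle replicate 1 was over 3 times replicate 2, the wider spread being that of ckmb. The myomesin genes encode the crosslinkers of myosin at the M-band. myom1b stood at 1604 and 470.2 CPM in slow muscle, 0 counts in both cyclopamine libraries and 4.06 and 0.414 CPM in untreated neural crest (slow muscle over untreated, edgeR adjusted p = 0.0588). myom1a stood at 582 and 215 CPM in slow muscle, 6.34 and 0 CPM in cyclopamine neural crest and 2.42 and 0 CPM in untreated neural crest (edgeR adjusted p = 0.169).

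Of the 9 genes for folding and turnover of sarcomere proteins 2 were called higher. hsp90aa1.1 (ENSDARG00000010478), the Hsp90 gene that zebrafish muscle uses to fold myosin, stood at 4358 and 3304 CPM in slow muscle, 284 and 46.5 CPM in cyclopamine neural crest and 56.1 and 82.6 CPM in untreated neural crest. The slow muscle libraries lay close together and above all others, while the neural crest groups overlapped (slow muscle over untreated, log2 fold change 5.79 ± 0.98, edgeR adjusted p = 0.0463). klhl41a (ENSDARG00000068888), a Kelch-like gene needed for myofibril order, stood at 439 and 180.1 CPM in slow muscle and had 0 counts in all 4 neural crest libraries, at least 1846-fold higher than the untreated limit (edgeR adjusted p = 0.0234). Its paralogue klhl41b was found in every library, at 1126 and 751 CPM in slow muscle, 105 and 13.8 CPM in cyclopamine neural crest and 12.9 and 15.9 CPM in untreated neural crest, and lay just outside the threshold (edgeR adjusted p = 0.0508). The myosin chaperone gene unc45b stood at 1300 and 1065 CPM in slow muscle, 95.01 and 4.51 CPM in cyclopamine neural crest and 22.2 and 42.9 CPM in untreated neural crest (edgeR adjusted p = 0.125).

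The partner of unc45b in myosin folding, smyd1b, a methyltransferase gene needed for myosin assembly, stood at 1245 and 792 CPM in slow muscle, 74.7 and 9.11 CPM in cyclopamine neural crest and 25.0 and 7.16 CPM in untreated neural crest (slow muscle over untreated, edgeR adjusted p = 0.0721). smyd1a stood at 279 and 90.5 CPM in slow muscle, 0 counts in both cyclopamine libraries and 6.69 and 0 CPM in untreated neural crest (edgeR adjusted p = 0.233). Both genes of the pair were thus highest in slow muscle, without passing the test. klhl31, a further Kelch-like gene of muscle, stood at 1520 and 739 CPM in slow muscle, 92.1 and 5.50 CPM in cyclopamine neural crest and 11.8 and 18.52 CPM in untreated neural crest (edgeR adjusted p = 0.0849). The klhl40 genes encode stabilisers of nebulin and leiomodin. klhl40a stood at 82.4 and 49.9 CPM in slow muscle, 5.34 and 0 CPM in cyclopamine neural crest and 0 and 1.66 CPM in untreated neural crest (edgeR adjusted p = 0.269). klhl40b stood at 223 and 129.6 CPM in slow muscle, 6.39 and 0 CPM in cyclopamine neural crest and 0 counts in untreated neural crest, at least 1052-fold higher than the untreated limit without passing the test (edgeR adjusted p = 0.112).

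Of the 9 genes of the membrane, calcium release and calcium uptake 2 were called higher, cav3 and ryr1b. cav3 (ENSDARG00000024141) encodes caveolin 3, which shapes the muscle surface membrane and the T-tubules. It stood at 293 and 146 CPM in slow muscle, 11.2 and 17.1 CPM in cyclopamine neural crest and 0 counts in both untreated libraries, at least 1308-fold higher in slow muscle than the untreated limit (edgeR adjusted p = 0.0132). ryr1b (ENSDARG00000023797), 1 of the pair of genes for the skeletal muscle ryanodine receptor and known in zebrafish for fast fibres, stood at 441 and 248 CPM in slow muscle, 43.6 and 29.6 CPM in cyclopamine neural crest and 5.11 and 7.87 CPM in untreated neural crest. The 3 groups did not overlap, in that order (slow muscle over untreated, log2 fold change 5.73 ± 0.53, edgeR adjusted p = 0.0136). ryr1a (ENSDARG00000011422), known for slow fibres, stood at 1502 and 582 CPM in slow muscle, 1.27 and 0 CPM in cyclopamine neural crest and 2.32 and 0 CPM in untreated neural crest. Its slow muscle values were far above all others, yet its adjusted p of 0.0941 (edgeR) missed the threshold, with 1 neural crest library in each group at 0.

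The voltage sensor and its helpers were lower in every neural crest library than in slow muscle, with the smallest gap for cacnb1. cacna1sb, the pore subunit of the voltage-sensing calcium channel, stood at 229 and 121 CPM in slow muscle, 0 and 0.705 CPM in cyclopamine neural crest and 2.003 and 2.37 CPM in untreated neural crest (slow muscle over untreated, edgeR adjusted p = 0.0689). stac3, whose protein couples that channel to the ryanodine receptor, stood at 293 and 136 CPM in slow muscle, 2.45 and 0 CPM in cyclopamine neural crest and 0.896 and 3.02 CPM in untreated neural crest (edgeR adjusted p = 0.122). The beta subunit gene cacnb1 had the smallest difference of the 44 genes, at 68.1 and 54.4 CPM in slow muscle, 3.62 and 0 CPM in cyclopamine neural crest and 6.27 and 10.6 CPM in untreated neural crest (slow muscle over untreated, log2 fold change 2.86 ± 1.67, edgeR adjusted p = 0.399). In the calcium store, the calsequestrin gene casq2, the slow and cardiac form in mammals, stood at 1073 and 372 CPM in slow muscle, 9.24 and 0 CPM in cyclopamine neural crest and 1.27 and 5.92 CPM in untreated neural crest (edgeR adjusted p = 0.15). casq1b, of the fast form, stood at 42.5 and 14.2 CPM in slow muscle, 2.13 and 0 CPM in cyclopamine neural crest and 0 counts in untreated neural crest (edgeR adjusted p = 0.159). The calcium pump gene atp2a1 stood at 7352 and 1958 CPM in slow muscle, 319 and 21.6 CPM in cyclopamine neural crest and 37.1 and 84.9 CPM in untreated neural crest (edgeR adjusted p = 0.104). For each of these 6 genes both slow muscle libraries exceeded every neural crest library, and none passed edgeR's test against untreated cells.

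Cyclopamine neural crest was then set against untreated neural crest, to compare the levels of these transcripts in the sox10 sort with and without the drug. Whether the drug blocked Hedgehog signalling in these cells was not tested. The treated and untreated libraries share no replicate number, so treatment cannot be separated from sample set here. edgeR called none of the 44 genes and none of the 17701 genes tested in either direction (0% of all genes higher and 0% lower). At an unadjusted p under 0.05, 6 of the 44 genes were higher and 3 lower, where 2.48% and 1.85% of all genes were. DESeq2 called 5 of them higher (neb, actn3b, ldb3a, cav3 and ryr1b) and 1 lower (myom1b), among 305 of all genes called in either direction. Both cyclopamine libraries exceeded both untreated libraries for 8 of the 44 genes and lay below them for 5, where 14.6% and 16.6% of all genes did. As shares of the 44 genes these are 18.2% and 11.4%, near those of all genes.

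The cyclopamine libraries differed widely from each other. As a percentage of the slow muscle mean, the median over the 44 genes was 3.19 in cyclopamine replicate 3 and 0.0765 in replicate 4, against 0.453 and 0.739 in untreated replicates 1 and 2. In replicate 3, 31 genes stood above 1% of slow muscle and 15 above 5%, while in replicate 4 these numbers were 11 and 3, and in the untreated libraries 15 and 18 above 1% and 2 in each above 5%. Without cyclopamine replicate 3 the median log2 fold change over the 44 genes was -1.04, and without replicate 4 it was 1.78, against 0.88 with both. Without replicate 3, edgeR called 3 of the 44 genes higher (neb, cav3 and ryr1b) and 3 lower (lmod3, unc45b and cacnb1), among 1366 of 19889 genes tested. Without replicate 4 it called 3 higher (klhl40b, klhl41b and cav3) and none lower, among 17 of 20255 genes tested.

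**Figure D4:**
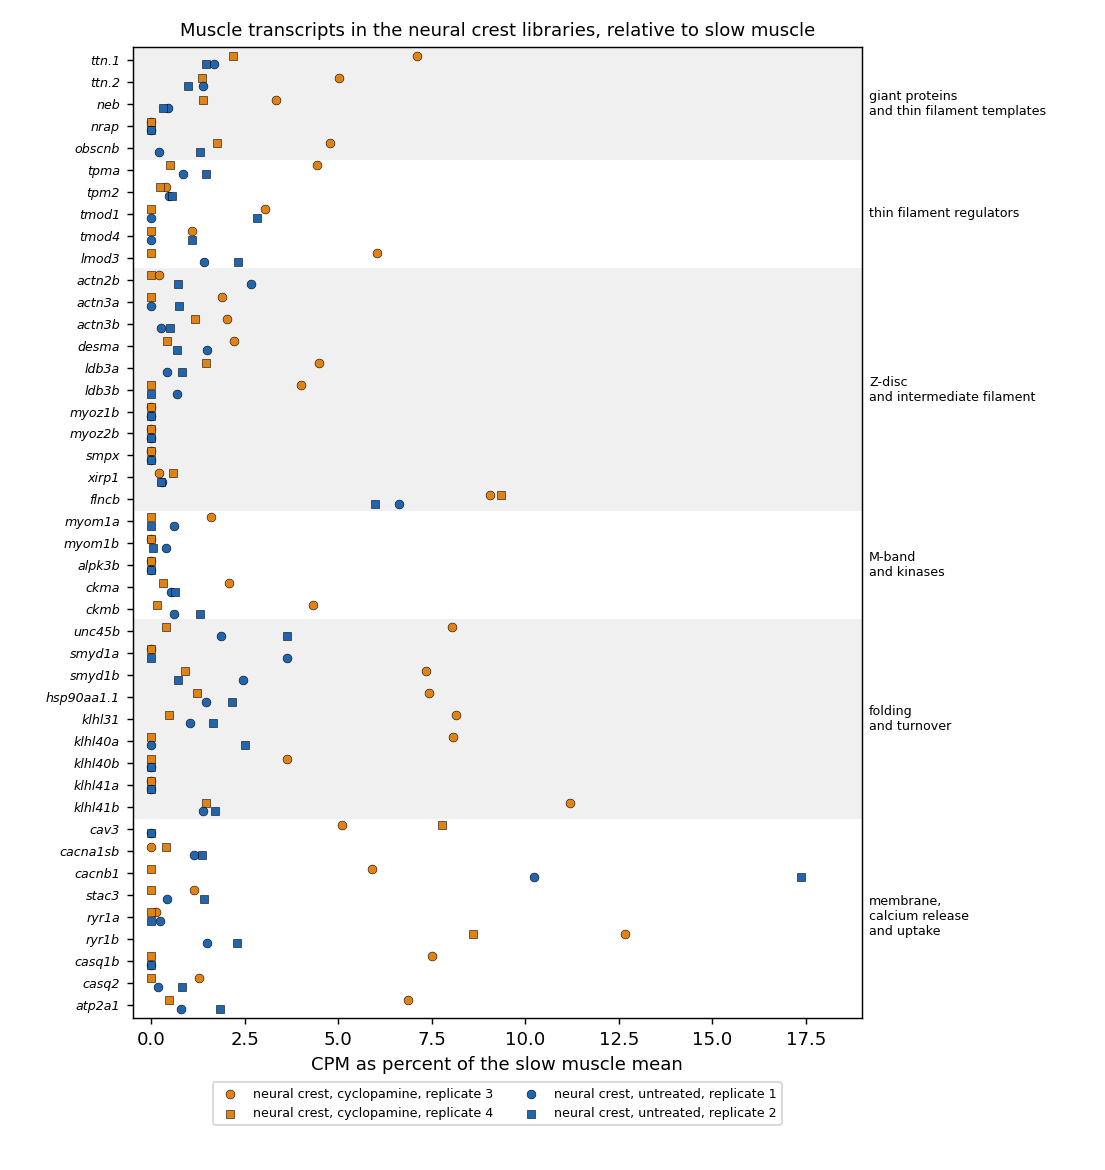
CPM of each of the 44 genes (rows, grouped by role) in the 4 neural crest libraries, as a percentage of the mean of the 2 slow muscle libraries. In cyclopamine replicates 3 and 4 ryr1b lies at 12.7 and 8.59% and klhl41b at 11.2 and 1.47%, in untreated replicates 1 and 2 cacnb1 lies at 10.2 and 17.4%, and ryr1a, nrap, alpk3b, smpx, myoz2b and klhl41a lie at or near 0 in all 4 libraries.

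The 8 genes with both cyclopamine libraries above both untreated ones were cav3, ryr1b, neb, actn3b, ldb3a, ttn.1, obscnb and flncb. Their unadjusted p ran from 0.000102 for cav3 to 0.117 for flncb in edgeR, in that order, and the first 5 are those that DESeq2 called. cav3 had 247 and 364 counts in cyclopamine replicates 3 and 4 and no count in either untreated library, which put it at 5.09 and 7.79% of the slow muscle mean (edgeR adjusted p = 0.45). ryr1b reached 12.7 and 8.59% of the slow muscle mean in the cyclopamine libraries against 1.48 and 2.28% in the untreated ones, 2.495 ± 0.46 on the log2 scale (± SE, edgeR adjusted p = 0.676). neb reached 3.34 and 1.37% against 0.440 and 0.314%, 2.64 ± 0.59 on the log2 scale (edgeR adjusted p = 0.79). actn3b reached 2.04 and 1.16% against 0.254 and 0.508% and ldb3a 4.49 and 1.47% against 0.412 and 0.830% (edgeR adjusted p = 0.835 for each). These were lower shares of the slow muscle level than those of cav3 and ryr1b. flncb, which had the highest mean untreated level relative to slow muscle after cacnb1, stood at 9.05 and 9.34% against 6.62 and 5.99% (edgeR adjusted p = 0.835). The 5 genes that went the other way were myom1b, actn2b, cacna1sb, tpm2 and cacnb1. Their unadjusted p ran from 0.0132 for myom1b to 0.227 for cacnb1 in edgeR, in that order. On the log2 scale actn2b differed by -4.01 ± 1.46, cacna1sb by -2.62 ± 1.19, tpm2 by -0.765 ± 0.54 and cacnb1 by -2.22 ± 1.65. myom1b had no count in either cyclopamine library.

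Cyclopamine replicate 3 alone lay above both untreated libraries for 29 of the 44 genes (65.9%, where 38% of all genes tested did so), and replicate 4 alone for 9 (20.5%, where 32.4% of all genes did so). All roles took part in replicate 3, with 4 of 5 giant proteins, 4 of 5 thin filament regulators, 6 of 11 Z-disc genes, 3 of 5 M-band genes, 7 of 9 folding genes and 5 of 9 genes of the membrane and calcium handling. In replicate 4 none of the thin filament, M-band and folding genes did so. klhl31 stood at 8.15 and 0.486% of slow muscle in cyclopamine replicates 3 and 4, against 1.04 and 1.64% in untreated replicates 1 and 2. smyd1b stood at 7.33 and 0.894% in the cyclopamine libraries against 2.45 and 0.703% in the untreated ones. The values for unc45b were 8.04 and 0.381% in the cyclopamine libraries against 1.88 and 3.63% in the untreated ones, and for hsp90aa1.1 7.42 and 1.21% against 1.46 and 2.15%. The untreated values thus lay between the cyclopamine values for klhl31, unc45b and hsp90aa1.1. The calcium pump atp2a1 followed the same layout, at 6.86 and 0.463% against 0.797 and 1.82%.

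Summed markers of fast muscle and epidermis moved with this in cyclopamine replicate 3, and summed markers of slow muscle and endothelium did not. Endothelial markers summed to 115 and 243 CPM in cyclopamine replicates 3 and 4, against 266 and 293 CPM in untreated neural crest. Among them fli1a went the other way, at 62.7 and 43.4 CPM against 53.4 and 58.2 CPM. Of the 8 slow muscle markers, 5 were at 0 in replicate 3 and 6 in replicate 4, against 4 in each untreated library. Each of these numbers includes tnni1b and tnnt1, which were low in slow muscle itself (76 and 0 counts, and 115 and 6 counts). The slow myosin gene smyhc1 had 21 and 0 counts in the cyclopamine libraries against 894 and 997 in the untreated ones. Fast muscle markers summed to 633 and 166 CPM in cyclopamine replicates 3 and 4 and 90.4 and 109 CPM in untreated neural crest, with 1 and 5 of 13 at 0 in the cyclopamine libraries against 3 and 6 in the untreated ones. In replicate 4 most of that sum was tnnt3b, a fast troponin T gene, at 139 CPM (2969 counts) against 5.12 CPM in replicate 3 (113 counts). The other 12 fast markers summed to 628 and 26.2 CPM in cyclopamine replicates 3 and 4, against 86.4 and 109 CPM in untreated neural crest. The fast myosin gene myhz1.3 had 4997 and 3 counts in the cyclopamine libraries, 395 and 642 in the untreated ones and 2622 and 1959 in slow muscle. Epidermal markers summed to 1486 and 308 CPM in the cyclopamine libraries against 812 and 553 CPM in the untreated ones. Of the replicate 3 sum, krt4 gave 783.5 CPM. Most other epidermal markers were also higher in replicate 3 than in untreated neural crest, but not all. There krt97 stood at 6.52 CPM against 13.9 and 11.9 CPM in the untreated libraries. epcam, at 35.6 CPM, lay between its untreated values of 41.0 and 17.7 CPM. The part of such cells in the levels of the 44 genes was not tested.

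Set against cyclopamine neural crest, slow muscle was higher for 18 of the 44 genes in edgeR's test, where 1.38% of all genes were, and lower for none (0.797% of all genes were). At an unadjusted p under 0.05, 39 of the 44 were higher and none lower, where 11.2% and 8.41% of all genes were, and DESeq2 called none lower. Both slow muscle libraries exceeded both cyclopamine libraries for 44 of 44 genes, where 31.1% of all genes did, and for none was it the reverse (21.8% of all genes). This comparison shares its slow muscle libraries with the one against untreated cells. myom1b had no count in cyclopamine cells and was called here (edgeR adjusted p = 0.0427, against 0.0588 over untreated cells), and cacna1sb was called as well (edgeR adjusted p = 0.0471, against 0.0689). ckma, obscnb and hsp90aa1.1 were not called over cyclopamine cells (edgeR adjusted p of 0.0609, 0.0736 and 0.0722). Whether these differences between the comparisons exceed their error was not tested. When the 4 libraries compared were fitted alone, none of the 44 genes and no other gene was called. The median log2 fold change over the 44 genes was 5.875 with all libraries. It was 9.51 without cyclopamine replicate 3 and 4.97 without cyclopamine replicate 4.

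Many genes of the set come as pairs, and the share of a pair's counts that falls on 1 of its genes can be read within a library without scaling between libraries. Such a share also depends on transcript length, so it was compared only between libraries and not read as a molar ratio. Intervals are exact Clopper-Pearson 95% intervals for counting error, and they take each read as independent. Genes at low counts piled up at 44 and 38 counts in slow muscle replicates 1 and 2, and at 38 and 102 in cyclopamine replicates 3 and 4. In untreated replicates 1 and 2 they did so at 34 and 37 counts. The intervals may therefore be too narrow. The ryanodine receptor pair differed between slow muscle and every neural crest library. ryr1a took 77.3% (76.9 to 77.8) and 70.1% (69.5 to 70.7) of the pair's counts in slow muscle replicates 1 and 2. It took 2.83% (1.89 to 4.06) in cyclopamine replicate 3 and 0% (0 to 0.584) in cyclopamine replicate 4, and 31.2% (23.7 to 39.5) and 0% (0 to 2.73) in untreated replicates 1 and 2. ryr1a was thus the larger part in both slow muscle libraries and the smaller part in all 4 neural crest libraries. The cyclopamine shares rest on 991 and 630 counts of the pair. The untreated shares rest on only 141 and 133 counts, with 44 of ryr1a in replicate 1, so they are much less certain.

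**Figure D5:**
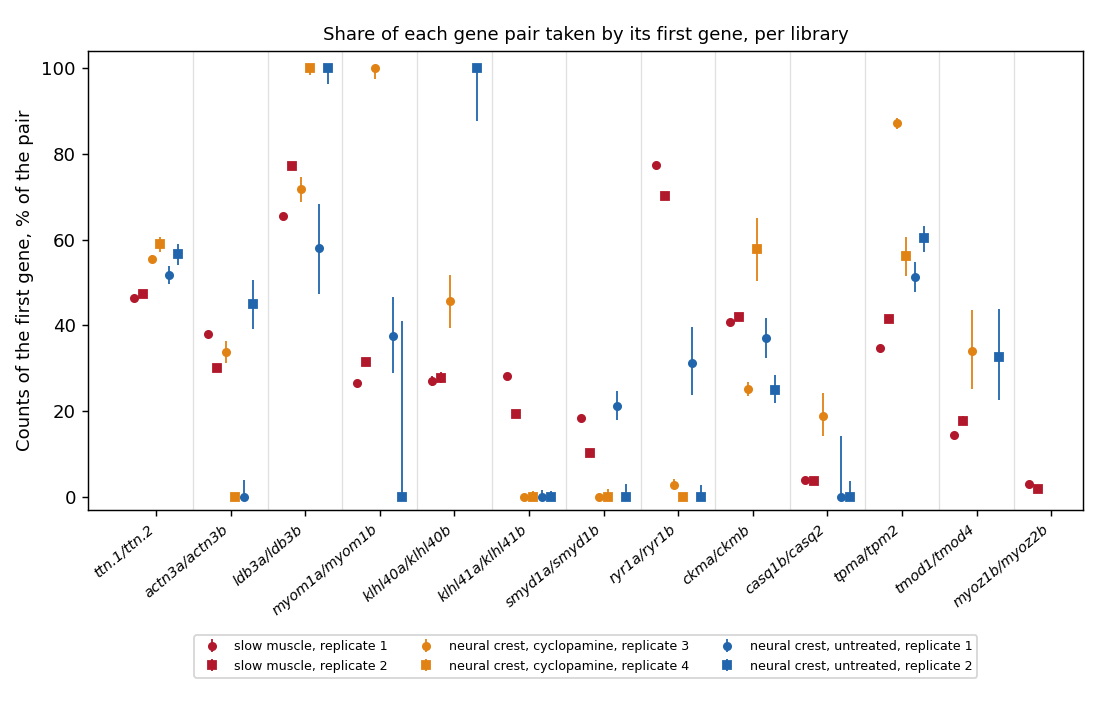
Share of the counts of each gene pair (%) that fell on its first gene, for 13 pairs in the 6 libraries; bars are exact 95% binomial intervals for counting error, and a library with no count for a pair has no point. ryr1a takes 77.3% and 70.1% of its pair in slow muscle and at most 31.2% in a neural crest library.

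The klhl41 pair differed likewise between slow muscle and every neural crest library. klhl41a took 28.1% (27.6 to 28.6) and 19.4% (18.8 to 19.9) of the klhl41 counts in slow muscle and had no count in any neural crest library, where klhl41b had 2322 and 293 counts in cyclopamine cells and 244 and 269 in untreated cells. smyd1a took 18.3% (17.9 to 18.8) and 10.2% (9.84 to 10.7) of the smyd1 counts in slow muscle. In the neural crest libraries smyd1a was found in untreated replicate 1 alone, at 21.1% (17.9 to 24.6), and the share was 0 of 1650 and 0 of 194 counts in cyclopamine replicates 3 and 4. Among the myomesin genes, myom1a took 26.6% (26.2 to 27.1) and 31.4% (30.7 to 32.1) in slow muscle. It took all 140 counts of the pair in cyclopamine replicate 3, 37.4% (28.8 to 46.6) in untreated replicate 1, whose interval overlaps that of slow muscle replicate 2, and 0 of 7 counts in untreated replicate 2. The intervals of the slow muscle libraries did not overlap each other in the klhl41, smyd1 and myom1 pairs. The same held for the ryr1 pair and for every other pair but those of klhl40 and of casq1b with casq2. The intervals therefore do not cover the spread between replicates. Whether these shares differ by more than reads that are not independent would give was not tested.

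Tropomyosin counts shifted between libraries as well. tpma took 34.8% (34.5 to 35.0) and 41.5% (41.1 to 41.8) of the tpma and tpm2 counts in slow muscle. It took 87.1% (85.8 to 88.3) and 56.1% (51.5 to 60.6) in cyclopamine replicates 3 and 4, and 51.3% (47.7 to 54.8) and 60.2% (57.2 to 63.2) in untreated replicates 1 and 2. All 4 neural crest libraries lay above both slow muscle libraries. ttn.1 followed the same layout in a narrower range, with 46.4% and 47.2% of the titin counts in slow muscle, 55.4% and 58.9% in cyclopamine cells and 51.7% and 56.5% in untreated cells. In slow muscle, klhl40a took 26.9% (25.8 to 28.1) and 27.8% (26.4 to 29.2) of the klhl40 pair and casq1b 3.81% (3.56 to 4.08) and 3.67% (3.29 to 4.08) of its pair with casq2, with overlapping intervals between the replicates. ckma took 40.9% (40.6 to 41.2) and 42.0% (41.5 to 42.4) of the creatine kinase pair there, close in size but with intervals that do not overlap. actn3a took 37.9% and 30.1% of the actn3 counts in slow muscle, and ldb3a 65.5% and 77.2% of the ldb3 counts. In the neural crest libraries both of these pairs ranged widely, with a partner at 0 in 2 libraries each. tmod1 took 14.5% and 17.8% of its pair with tmod4 in slow muscle and myoz1b 2.89% and 1.74% of its pair with myoz2b.

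Further genes of the same structures were taken from 6 lists with 153 names, of which 138 were in the table and 109 passed the filter. In edgeR's test 14 of the 109 were higher in slow muscle than in untreated neural crest, where 1.67% of all genes tested were. Among them 1 was lower, near the share of all genes tested (0.876%). The median log2 fold change was 5.42, against 0.08 over all genes tested. Between cyclopamine and untreated neural crest edgeR called none of them, as it called no gene at all. Of 23 further Z-disc genes 5 were higher. The PDZ and LIM domain gene pdlim3b (66.5 and 30.8 CPM in slow muscle) and the synaptopodin 2 gene synpo2b (45.1 and 42.7 CPM) had 0 counts in all 4 neural crest libraries, and the second filamin C gene flnca stood at 1535 and 1069 CPM in slow muscle, 13.8 and 87.3 CPM in cyclopamine neural crest and 9.38 and 13.8 CPM in untreated neural crest. synpo2lb stood at 609 and 365 CPM in slow muscle against 5.38 and 7.57 CPM in untreated neural crest. Of 17 M-band and thick filament genes none was higher and 1 was lower, the brain-type creatine kinase gene ckbb, at 9.81 and 12.8 CPM in slow muscle against 174 and 216 CPM in untreated neural crest, a difference of -4.11 ± 0.55 on the log2 scale (edgeR adjusted p = 0.0294). That is the reverse of the muscle-type genes ckma and ckmb. Of 8 thin filament genes tpm3 alone was higher (5902 and 2544 CPM against 483 and 461 CPM), and of 11 folding genes hspb8, a small heat shock protein gene, alone (781 and 442 CPM against 74.6 and 64.2 CPM).

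Of 32 further genes of the triad, the junction of T-tubule and calcium store, 4 were higher in slow muscle than in untreated neural crest. Over all genes tested that share was 1.67%. cacna1sa, the paralogue of cacna1sb, stood at 107 and 36.5 CPM in slow muscle with 0 counts in all 4 neural crest libraries (edgeR adjusted p = 0.0409). The sarcoplasmic reticulum gene srl (sarcalumenin) stood at 2290 and 953 CPM against 5.85 and 7.28 CPM in untreated neural crest, and tmem38a, the cation channel gene TRIC-A of that membrane, at 810.3 and 438 CPM against 5.69 and 6.98 CPM. bin1b, whose protein bends T-tubule membranes, stood at 189.8 and 97.8 CPM in slow muscle, 6.39 and 5.68 CPM in cyclopamine neural crest and 0.633 and 1.95 CPM in untreated neural crest (slow muscle over untreated, edgeR adjusted p = 0.0196). Of 18 genes of the muscle membrane and synapse 3 were higher. They were the dystroglycan gene dag1, at 617 and 699.6 CPM against 67.3 and 80.9 CPM, the dystrophin gene dmd, at 303 and 177 CPM against 11.4 and 23.1 CPM, and the membrane repair gene dysf, at 136 and 83.4 CPM against 8.17 and 10.4 CPM. dag1 is also used by many other cells, and it alone of these 3 was higher in slow muscle replicate 2 than in replicate 1.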

How the data were processed

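Bulk polyA RNA of 6 libraries (3 groups of 2) was measured as deposited counts, which per the labels and the submitters' processing notes the authors made with STAR, featureCounts and Subread, with DESeq2 also named, without versions, from libraries of a stranded kit. Counts are whole reads per Ensembl gene, and gene symbols came with the deposited table. For the genome build, the annotation, the strand setting of the counting and reads with several alignments, nothing was given in the sources used here. Near-identical and overlapping genes are therefore uncertain, and no coordinates or sequences are printed. The authors' deposited log2 values were not used. Titles of the untreated neural crest libraries also hold the word slow-twitch. Their tissue field, neural crest, was followed. Slow muscle and untreated crest both have replicates 1 and 2, but no label says that a number marks the same embryos, and the test was unpaired.

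edgeR 4.0.16 (R 4.3.3) with its default quasi-likelihood settings, TMM and filterByExpr (minimum count 10, minimum total 15) was fitted to all 6 libraries and 17701 genes. Tests were two-sided, with Benjamini-Hochberg adjustment across every gene in the fit (threshold 0.05), and standard errors derive from the test statistic. The code was tested on simulated data. CPM uses the TMM-normalised library size. The alternatives were other filters, RLE and upper quartile scaling, DESeq2 1.42.0, the 4 libraries compared alone, a replicate block and each library left out. The fixed list also named edgeR's earlier quasi-likelihood method, which is the default of this version, so the newer method was added instead. Values per library were planned for called genes and gene pairs, and every gene of the set is named. The genes and lists were chosen with earlier results of these data known.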

Additional observations from a re-analysis of the deposited data

How the results depend on the processing

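For slow muscle over untreated neural crest, the main test called 19 of the 44 genes higher and 451 of all genes, and every alternative kept those 19 except leaving out an untreated library. RLE scaling, upper quartile scaling and the stricter filter gave 20 of the set and 472 to 508 of all genes. Larger counts came without a filter on low counts (39 of the set, 1408 of all genes), with DESeq2 (37 and 2756), with the newer quasi-likelihood method (43 and 1818, chosen after seeing the data) and with only the 4 libraries compared (39 and 2368). The replicate block gave 40 and 2053. The numbers were not shown to pair the samples (correlation of the replicate differences across genes 0.0148), so the block result is given here alone. Leaving out each library gave 7 to 43 of the set, 108 to 3013 of all genes and a median log2 fold change over the set of 6.44 to 7.78.

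For slow muscle over cyclopamine neural crest, with 18 of the set and 385 of all genes called, no filter gave 36 and 1277, DESeq2 36 and 2730, the newer method 43 and 1890, and only the 4 libraries compared 0 and 0. Leaving out each library gave 14 to 43 of the set, 204 to 3581 of all genes and a median of 4.97 to 9.51. For cyclopamine over untreated neural crest, with 0 called, no filter gave 1 of the set higher and 21 of all genes, and DESeq2 5 higher, 1 lower and 305 of all genes. Leaving out each library gave 0 to 3 higher, 0 to 3 lower and 0 to 1366 of all genes (17 without cyclopamine replicate 4), and a median of -1.04 to 1.78, the negative value without cyclopamine replicate 3. Without that library lmod3 and unc45b turned to lower, with log2 fold changes over all left-out libraries from -8.57 to 1.70 for lmod3 and from -2.84 to 1.54 for unc45b. lmod3 has no count in cyclopamine replicate 4. The cause of these changes was not tested. A lone library left in a group is assumed to vary like the other groups. No gene of the set was called lower in slow muscle under any alternative. What depth adds to the spread between the neural crest libraries was not tested.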
